A study of Homo sapiens with 6 samples.

Results

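The tropomyosin genes TPM1, TPM2, TPM3 and TPM4 and 6 genes of the actin contractile apparatus, ACTB, ACTG1, MYL9, MYH9, FLNA and TAGLN2, were examined in PC3 cells treated with RSM3. The 10 genes were taken by gene name from the deposited count table, which holds 60545 genes, and all 10 passed the low-count filter that left 15773 genes for testing. The genes were chosen by measured values of these libraries, since the level of TPM1 was known to separate Control replicates 1 and 2 from the other libraries. TPM1 is therefore described without a test.

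PC3 is an established human prostate cancer line, and RSM3 is named in the labels as a peptide. RNA was sequenced from 3 libraries of RSM3-treated cells and 3 libraries of Control cells. All were grown in RPMI-1640 medium with fetal bovine serum, and the groups differ in the agent alone as far as the labels say. The labels give no dose and no duration, and what the Control cells received is not stated. The labels do not say whether replicates were separate cultures, so p-values measure only the spread between these libraries, which may be technical.

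Tropomyosins are coiled-coil proteins that polymerise end to end along actin filaments and set which myosins and other proteins can bind there. In muscle, TPM1 and TPM2 products hold the troponin complex that makes contraction depend on calcium, whereas cells outside muscle use shorter and longer isoforms of all the family on stress fibres and at the cell cortex. ACTB and ACTG1 encode the cytoplasmic actins, MYH9 the heavy chain and MYL9 a regulatory light chain of nonmuscle or smooth muscle myosin II, FLNA the filament crosslinker filamin A, and TAGLN2 the actin-binding protein transgelin-2. Many genes of this group are targets of the serum response factor SRF and its actin-sensing cofactors, the MRTF proteins.

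Reads are counted per gene, so the stretches where relatives have the same bases are shown first. Among the coding sequences of the tropomyosins, the longest run shared by TPM1 and TPM2 was 38 bases in exon 1 of transcripts TPM1-201 and TPM2-201, with the shared start codon in capitals (GRCh38, chr15:63042830-63042867 on the plus strand for TPM1 and chr9:35689780-35689817 on the minus strand for TPM2). ACTB and ACTG1 shared a run of 59 bases in exon 5 of each (chr7:5528098-5528156 and chr17:81511021-81511079, both on the minus strand), printed with no capitals.
TPM1 and TPM2: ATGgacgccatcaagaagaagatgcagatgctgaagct
ACTB and ACTG1: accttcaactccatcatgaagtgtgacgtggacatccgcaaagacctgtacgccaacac
The other tropomyosin pairs shared runs of 20 to 35 bases. No stretch of 150 bases, the length of a read, in any annotated TPM1 transcript was found in a transcript of another gene, and 1.03% of its 50-base stretches were. The same share of 50-base stretches was 7.14% for TPM4, 5.84% for TAGLN2, 4.84% for ACTB, 3.25% for TPM3 and 2.30% for ACTG1. TPM4 was the only one of the 10 genes with shared stretches of 150 bases, at 0.164%.

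A second set of sequences shows the SRF motif, the CArG box, in the promoters of these genes. RefSeq promoter sequences (GRCh38.p14, 250 bases before to 50 after a start) were given for 8 of the 10 genes, 14 sequences in all, and no entry was given for ACTB and MYL9. An exact CArG box, a motif whose consensus is the same on both strands, was present in 3 of the 14 sequences (21.4%), against 454 of 35116 sequences of the whole table (1.29%). The windows are chr17:81512859-81512918 on the minus strand for ACTG1, chr19:16067340-16067399 on the plus strand for TPM4 and chrX:154374694-154374753 on the minus strand for FLNA, with the motif in capitals.
ACTG1: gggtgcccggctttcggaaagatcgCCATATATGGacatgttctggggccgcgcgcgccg
TPM4: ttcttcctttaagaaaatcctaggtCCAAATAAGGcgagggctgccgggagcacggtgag
FLNA: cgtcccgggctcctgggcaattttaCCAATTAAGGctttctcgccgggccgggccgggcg
The first base of the motif lies 94 bases before the start in ACTG1 and in FLNA, and 173 bases before it in TPM4. The sequences of TPM1, TPM2, TPM3, MYH9 and TAGLN2 held no exact match. A match is a description of letters and not a measured binding site.

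Some libraries stood apart from the others, and the values are given before the results that rest on them. The libraries held 14091359 to 18594251 counts. Across genes, the Spearman correlation between GC content and the log2 deviation of a library from the 6-library average was 0.421 in RSM3 replicate 1 and between −0.323 and 0.162 in the others. Processed pseudogenes took 0.164% and 0.166% of the counts in Control replicates 1 and 2, against 0.120% to 0.129% in the other 4 libraries. Epithelial markers were present in every library, with KRT8 between 271 and 418 CPM (counts per 1000000, scaled by TMM throughout) and EPCAM between 8.55 and 11.5 CPM. KLK3 reached at most 0.0527 CPM, a low level as is usual for PC3. A list of 12 smooth muscle and fibroblast markers summed to 282 to 318 CPM in the Control libraries and to 239 to 325 CPM in the RSM3 libraries. SMTN (178 to 233 CPM) and COL1A1 (58.3 to 93.8 CPM) made up nearly all of it, the other 10 reached at most 1.65 CPM, and MYOCD and DCN had 0 counts throughout. A list of 4 endothelial markers, mostly KDR, summed to 219 to 240 CPM in Control and to 144 to 184 CPM in RSM3 libraries. VWF and CDH5 of that list were near 0, at most 0.129 and 0.114 CPM in any library. PECAM1 stood at 23.1 to 26.2 CPM in Control and at 19.3 to 21.8 CPM in RSM3 libraries. It did not pass (edgeR adjusted p = 0.258). The part of the list in the changes below was not tested. KDR, a growth factor receptor gene, fell (−0.54 ± 0.10 on the log2 scale, edgeR adjusted p = 0.00977).

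Control replicates 1 and 2 also held transcripts that were at or near 0 in the other libraries. Genes annotated to the Y chromosome were left out, which left 60036. Of these, 32 had at least 1 CPM in both libraries and at least 10 times the highest value of the other 4. In the reverse direction there were 0 genes. These limits were chosen after the values had been seen. Summed over the 32 genes, the level was 107 CPM in Control replicate 1 and 131 CPM in Control replicate 2, against 0.369 CPM in Control replicate 3 and at most 0.250 CPM in any RSM3 library. The set held 8 genes of a list of 32 striated muscle genes and 11 of a list of 16 mast cell genes, both drawn up after the values had been seen.

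The muscle genes of the set were myosin heavy chains and companions. MYH7, the slow and cardiac heavy chain, stood at 10.6 and 11.3 CPM in Control replicates 1 and 2, at 0.0527 CPM in Control replicate 3 and at 0 in the RSM3 libraries. MYH6, the atrial heavy chain, stood at 7.27 and 7.35 CPM in those Control libraries, and DES, which encodes the muscle filament desmin, at 1.36 and 1.65 CPM. MYH6 and MYH7 are near-identical neighbours, so the split of reads between them is uncertain. The mast cell genes included KIT, the stem cell factor receptor, at 5.73 and 9.17 CPM, HDC, which makes histamine, at 7.03 and 8.32 CPM, and the protease genes CPA3, at 6.03 and 8.03 CPM, and TPSAB1, at 3.43 and 4.90 CPM. KIT, HDC, CPA3, TPSAB1 and DES had 0 counts in the other 4 libraries.

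The whole lists separated the libraries less sharply than these genes. The 32 striated muscle genes summed to 216 and 208 CPM in Control replicates 1 and 2, to 173 CPM in Control replicate 3 and to 165 to 193 CPM in RSM3 libraries, since TNNT1 and TTN were high in every library. The mast cell list summed to 80.1 and 99.6 CPM in Control replicates 1 and 2 and to 35.7 to 45.4 CPM in the other 4 libraries, where GATA2 alone stood at 35.6 to 45.2 CPM. Several muscle genes stayed at or near 0 in all libraries, among them MYL1 and MYBPC1 with 0 counts throughout and CKM with at most 3 counts. So did some mast cell genes, among them SIGLEC8 with 0 counts throughout and CMA1 with at most 3 counts. FCER1A had 1 count in each of Control replicates 1 and 2 and 4 in Control replicate 3. PTPRC, a marker of leukocytes, was at 1.06 and 1.71 CPM in Control replicates 1 and 2 and at most 0.226 CPM elsewhere. Whether these transcripts have a part in the TPM1 and TPM2 values below was not tested. In bulk RNA, fewer cells of a type and less RNA per cell cannot be told apart.

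**Figure D1:**
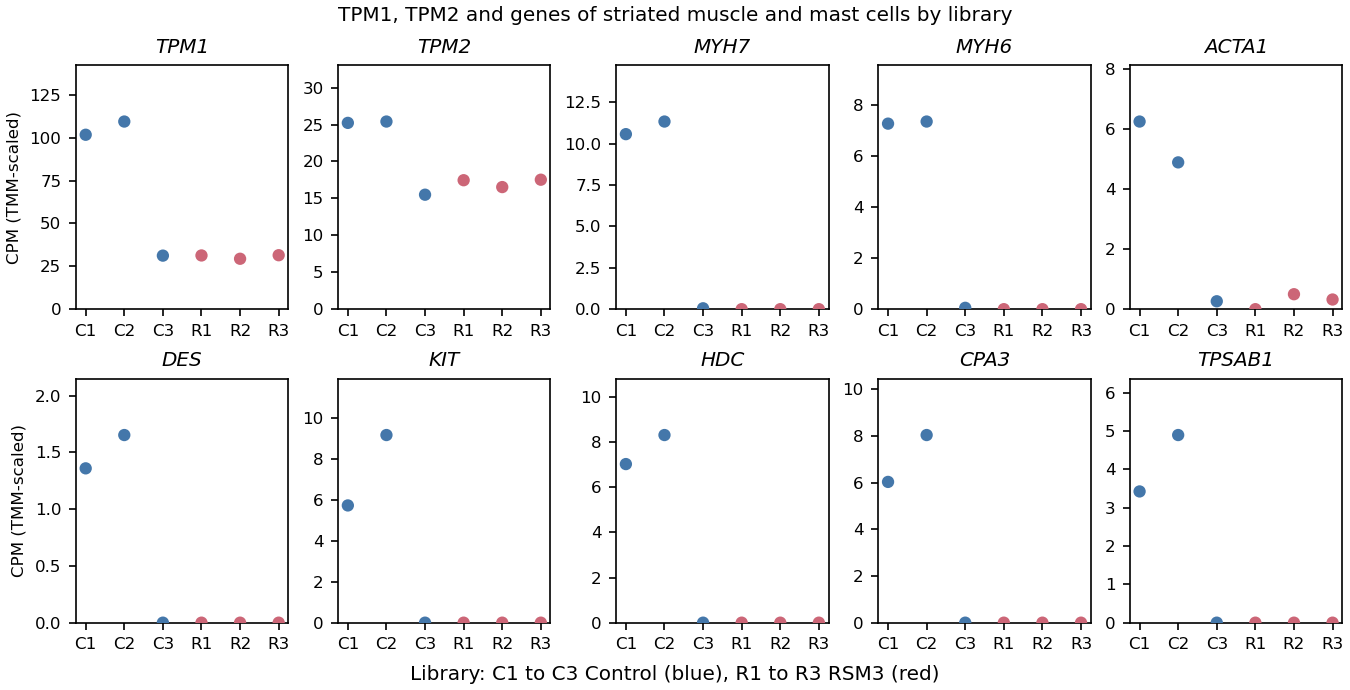
TMM-scaled CPM of TPM1, TPM2, 4 striated muscle genes and 4 mast cell genes in each library, on linear axes that start at 0 (C1 to C3, Control, blue; R1 to R3, RSM3, red). In each panel C1 and C2 lie above the other 4 libraries, from 102 and 109 CPM against 29.4 to 31.5 CPM for TPM1 to 1.36 and 1.65 CPM against 0 for DES.

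TPM1 (chromosome 15, 63042632 to 63071915, plus strand) encodes alpha-tropomyosin, made in many isoforms from 31 annotated transcript starts and 34 transcripts. It had 101.7 CPM in Control replicate 1, 109 CPM in Control replicate 2 and 31.2 CPM in Control replicate 3, and 31.3, 29.4 and 31.5 CPM in RSM3 replicates 1, 2 and 3. Control replicate 3 lay within the range of the RSM3 libraries, and the groups overlapped. The raw counts were 1721, 1920 and 592 in the Control libraries and 416, 471 and 488 in the RSM3 libraries. The group means were 80.8 ± 43.1 CPM in Control and 30.7 ± 1.16 CPM in RSM3 (SD, n = 3), and the fitted log2 fold change was −1.39 ± 0.50 (SE). Without Control replicates 1 and 2 it was −0.02.

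Set against the mean of the other 4 libraries, 30.8 ± 0.975 CPM (SD), TPM1 was higher by 70.8 CPM in Control replicate 1 and by 78.5 CPM in Control replicate 2. Among 11264 tested genes averaging 5 CPM or more, TPM1 had the widest gap between these 2 libraries and the highest of the others, 3.23-fold. TPM1 was chosen for this pattern, so its rank describes the choice. VWA5A and BTK averaged less than 5 CPM and had wider gaps, of 5.255-fold and 4.495-fold. Of all genes tested, 18 had such a gap of at least 2-fold and 4 had one in the reverse direction. The 18 comprised 13 processed pseudogenes, although processed pseudogenes made up 1.83% of the genes tested, the translated processed pseudogene AC113404.3 and the protein-coding genes VWA5A, BTK, TPM1 and IQGAP2. BTK, a kinase of blood cells, stood at 3.72 and 4.96 CPM in Control replicates 1 and 2 and at 0.158 CPM in Control replicate 3. The antisense genes TPM1-AS and AC079328.2 overlap TPM1 and had 0 counts in every library.

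Genes were ranked by the likeness of their pattern over the 6 libraries to that of TPM1. Likeness was measured as Pearson's r of log2(CPM + 1) among 243 tested genes that averaged 5 CPM or more and had a range of at least 1 on the log2 scale. These libraries fall into separate clusters and TPM1 was chosen for its pattern, so r is a description only. RPL7P9 had r = 0.99, HNRNPA1P48, RPL13AP5, RPL7P1, EEF1A1P6, VDAC2P5 and RPLP0P6 had r = 0.98, and AC008038.1 had r = 0.97. RPL13AP5, named as a pseudogene of a ribosomal protein gene, stood at 40.9 and 40.2 CPM in Control replicates 1 and 2 and between 14.5 and 18.0 CPM in the other 4 libraries. Of the 8 genes, 7 are annotated as processed pseudogenes and HNRNPA1P48 as protein coding. With Spearman's correlation in place of Pearson's, or with genes that averaged 1 CPM or more, 3 of the 8 stayed among the first 8, and the first 8 by Spearman's correlation included the protein-coding genes ADRA1D, C1QL4 and SPARC. The patterns least like that of TPM1 were those of CLTRN (r = −0.90), MIR137HG and GBP1 (r = −0.82) and HIVEP1 (r = −0.80).

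TPM2 (chromosome 9, 35681992 to 35690121, minus strand) encodes beta-tropomyosin, the partner of alpha-tropomyosin in muscle. It stood at 25.2, 25.4 and 15.5 CPM in the Control libraries and at 17.5, 16.5 and 17.5 CPM in the RSM3 libraries. Control replicates 1 and 2 were again the highest, Control replicate 3 was the lowest of all, and the groups overlapped. TPM2 was higher than the mean of the other 4 libraries, 16.8 ± 0.953 CPM, by 8.47 CPM in Control replicate 1 and by 8.65 CPM in Control replicate 2. Its log2 fold change in RSM3 was −0.36 ± 0.17 (SE; edgeR adjusted p = 0.289). The value turned to 0.15 without Control replicates 1 and 2 and was −0.56 without Control replicate 3 (edgeR adjusted p = 0.0364).

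TPM3 and TPM4 encode the tropomyosins that were most abundant here. TPM3 (chromosome 1, 154155304 to 154194648, minus strand) stood at 562, 604 and 623 CPM in the Control libraries and at 670.4, 631 and 653 CPM in the RSM3 libraries. All RSM3 values lay above all Control values by a small margin, and the log2 fold change was 0.13 ± 0.07 (edgeR adjusted p = 0.419). Pseudogenes named after TPM3 held 6.88% as many counts as TPM3 itself over all libraries. Nearly all were on the transcribed pseudogene TPM3P9, with 4162 counts, and each of the others had at most 27. No 150-base stretch of TPM3 was found in a transcript of another gene. Whether reads of such copies and of TPM3 were exchanged in counting was not tested.

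TPM4 (chromosome 19, 16067021 to 16103005, plus strand), whose main product is a short isoform found outside striated muscle, stood at 409, 440.0 and 425 CPM in the Control libraries and at 490.2, 506 and 529 CPM in the RSM3 libraries. The groups did not overlap, with means of 425 ± 15.6 and 508 ± 19.5 CPM (SD, n = 3). The log2 fold change was 0.26 ± 0.07 (edgeR adjusted p = 0.0666), and without RSM3 replicate 1 it was 0.29 and passed (edgeR adjusted p = 0.000165).

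The makeup of the tropomyosin family by library followed TPM1. TPM1 took 9.26% and 9.28% of the tropomyosin counts in Control replicates 1 and 2, 2.85% in Control replicate 3 and 2.48% to 2.59% in the RSM3 libraries. TPM3 took 51.2% to 56.9% of the family's counts and TPM4 took 37.2% to 43.0%. Summed over all 4 genes, the family stood at 1095 to 1179 CPM in the Control libraries and at 1183 to 1231 CPM in the RSM3 libraries. Without TPM1 the sums were 996, 1069 and 1063 CPM in the Control libraries and 1178, 1153 and 1199 CPM in the RSM3 libraries. The lowest RSM3 sum exceeded the highest Control sum by more when TPM1 was left out. TPM1 was chosen for its high level in Control replicates 1 and 2, so that wider gap follows from the choice. These shares hold TPM1 and were not tested.

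**Figure D2:**
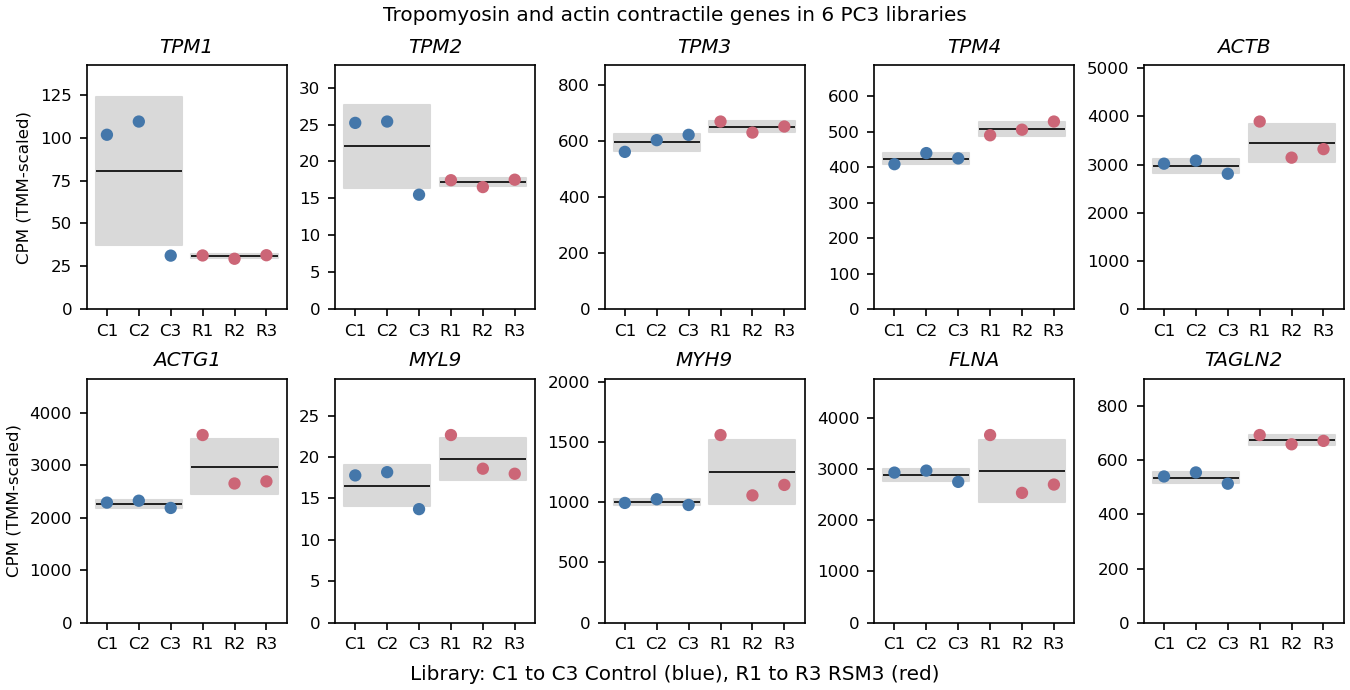
TMM-scaled CPM of the 10 genes in each library (C1 to C3, Control, blue; R1 to R3, RSM3, red), on linear axes that start at 0, with the group mean as a line and ±1 SD as a grey band. TPM1 and TPM2 are high in C1 and C2, whereas ACTG1, MYH9 and FLNA are highest in R1, at 3575, 1557 and 3662 CPM.

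The actins came next. ACTB (chromosome 7, 5527147 to 5563784, minus strand), the gene of beta-actin, stood at 3019.6, 3083 and 2811 CPM in the Control libraries and at 3894, 3145 and 3322 CPM in the RSM3 libraries. Every RSM3 library exceeded every Control library, with RSM3 replicate 1 furthest out. The log2 fold change was 0.22 ± 0.09 (edgeR adjusted p = 0.230), and it was 0.12 without RSM3 replicate 1 (edgeR adjusted p = 0.122). ACTG1 (chromosome 17, 81509971 to 81523847, minus strand), the gene of gamma-actin, stood at 2288, 2324 and 2186 CPM in the Control libraries and at 3575, 2652 and 2692 CPM in the RSM3 libraries. The groups did not overlap either, and the log2 fold change was 0.39 ± 0.11 (edgeR adjusted p = 0.0619). Without RSM3 replicate 1 it was 0.24 and passed (edgeR adjusted p = 0.00102).

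The balance between both actin genes moved toward ACTG1 in the RSM3 libraries. ACTB made up 56.9%, 57.0% and 56.3% of the summed ACTB and ACTG1 counts in Control and 52.1%, 54.3% and 55.2% in RSM3. The groups did not overlap, and the means were 56.7 ± 0.413% and 53.9 ± 1.58% (SD, n = 3; exact permutation test, two-sided, p = 0.1, which is the lowest that 3 libraries against 3 can give). The difference of −2.85 percentage points lay between −3.53 and −1.98 when each library was left out in turn. Pseudogenes named after ACTB and ACTG1 held 0.0413% and 0.216% as many counts as the genes themselves.

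Other actin genes were low. ACTA2, the smooth muscle actin, was the 1 tested gene of 10 other actins and actin-like genes, with a mean of 0.672 ± 0.238 CPM in the Control libraries and 0.623 ± 0.405 CPM in the RSM3 libraries (log2 fold change −0.11 ± 0.56, edgeR adjusted p = 0.949). ACTA1, the skeletal muscle actin, stood at 6.26 and 4.90 CPM in Control replicates 1 and 2 and at most 0.499 CPM in the other 4 libraries. ACTC1, the cardiac actin, stood at 0.886 and 1.08 CPM in Control replicates 1 and 2 and at most 0.0753 CPM elsewhere. Both followed the libraries in which TPM1 was high.

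The myosin II genes differed in level. MYH9 (chromosome 22, 36281277 to 36388067, minus strand) stood at 994, 1024 and 977 CPM in the Control libraries and at 1557, 1057 and 1143 CPM in the RSM3 libraries. The groups did not overlap, but 2 of the RSM3 libraries lay close to Control. The log2 fold change was 0.33 ± 0.12 (edgeR adjusted p = 0.162), and it was 0.14 without RSM3 replicate 1 (edgeR adjusted p = 0.0635). MYL9 (chromosome 20, 36541484 to 36551447, plus strand) stood at 17.8, 18.2 and 13.7 CPM in the Control libraries and 22.7, 18.6 and 18.0 CPM in the RSM3 libraries. The groups overlapped, and the log2 fold change was 0.25 ± 0.14 (edgeR adjusted p = 0.395). It was 0.13 without Control replicate 3, 0.15 without RSM3 replicate 1 and 0.53 without Control replicates 1 and 2.

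FLNA (X chromosome, 154348524 to 154374638, minus strand) stood at 2929, 2968 and 2748 CPM in the Control libraries and at 3662, 2533 and 2695 CPM in the RSM3 libraries. RSM3 replicate 1 was the highest of all libraries and the other 2 RSM3 libraries were the lowest. The log2 fold change was 0.04 ± 0.12 (edgeR adjusted p = 0.905), and it turned to −0.14 without RSM3 replicate 1 (edgeR adjusted p = 0.0739) and to −0.02 with scaling by library size alone. FLNA, MYH9, ACTB, ACTG1, MYL9, TPM2 and TAGLN2 have an exonic GC content of 57.2% to 62.0%, whereas TPM1, TPM3 and TPM4 lie between 46.7% and 49.5%. RSM3 replicate 1 was the library with the correlation of 0.421 with GC content. With TMM scaling it held the highest value of ACTB, ACTG1, MYL9, MYH9, FLNA and TAGLN2, and also of TPM3. The GC content of TPM3, 46.7%, is the lowest of the 10. Per library total, TPM3 stood at 632 CPM there, below 635 in Control replicate 3 and 649 in RSM3 replicate 3. TAGLN2 stood at 653 CPM there, below 658 and 667 in RSM3 replicates 2 and 3. ACTB, ACTG1, MYL9, MYH9 and FLNA were highest in RSM3 replicate 1 by either scaling. With an offset for GC content and length in the fit, TPM4, ACTB, ACTG1, MYH9 and TAGLN2 passed with log2 fold changes between 0.23 and 0.39. Under that offset 10.4% of all genes tested passed, and 8.93% with the replicate block added.

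TAGLN2 (chromosome 1, 159918107 to 159925732, minus strand) rose and was the 1 gene of the 9 tested here that passed. It stood at 539.9, 555 and 513 CPM in the Control libraries and at 693, 659 and 671 CPM in the RSM3 libraries. The groups were well separated, with means of 536 ± 21.1 and 674 ± 17.3 CPM (SD, n = 3). The log2 fold change was 0.33 ± 0.07 (edgeR adjusted p = 0.0211). It kept its size but no longer passed when Control replicate 1, 2 or 3 or RSM3 replicate 2 or 3 was left out, with edgeR adjusted p-values from 0.0594 to 0.119, nor with scaling by library size alone (edgeR adjusted p = 0.0501). Without RSM3 replicate 1 the edgeR adjusted p was 4.3e-05. Of all genes tested, 14.6% passed without RSM3 replicate 1, 2.09% and 1.78% without RSM3 replicates 2 and 3, and 1.38%, 1.33% and 2.49% without Control replicates 1, 2 and 3.

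Of all genes tested, 4.20% passed in either direction, 3.09% in the direction of higher levels in RSM3 and 1.10% in the other. The share that passed was 4.14% with DESeq2 size factors, 3.56% with library size alone, 3.36% without a filter, 4.58% with a filter at 1 CPM, 5.68% with DESeq2, 4.24% with limma voom and 4.14% with the replicate block. RSM3 values lay above all Control values without overlap for TPM3, TPM4, ACTB, ACTG1, MYH9 and TAGLN2, 6 of the 10 genes, as they did for 12.8% of all genes tested. For TPM3 this held with TMM scaling but not per library total. The median log2 fold change of the 10 genes was 0.24, with 8 above 0, and that of all genes tested was −0.0048. The 10 genes were chosen with earlier results of these libraries known, so these counts describe the choice. A p that misses the threshold does not show that a level was the same in both groups.

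**Figure D3:**
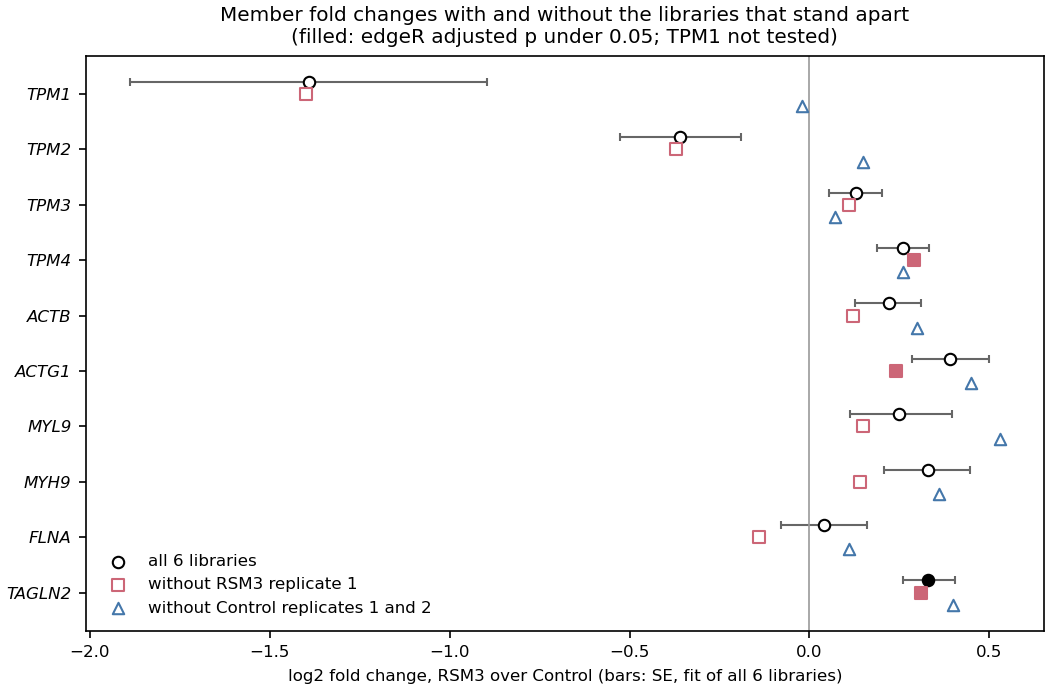
Log2 fold change of each gene, RSM3 over Control, from the fit of all 6 libraries (circles, with SE bars), without RSM3 replicate 1 (squares) and without Control replicates 1 and 2 (triangles), where filled symbols have an edgeR adjusted p under 0.05 and TPM1 has no test. TPM1 moves from −1.39 to −0.02 and TPM2 from −0.36 to 0.15 without the 2 Control libraries, whereas TAGLN2 moves from 0.33 to 0.40.

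Levels per length were compared between genes as CPM per kilobase of annotated exon, in Control means. ACTB came first at 844 and ACTG1 next at 757, followed by FLNA at 272 and TAGLN2 at 216 CPM per kilobase. MYH9 stood at 111, TPM3 at 71.1 and TPM4 at 49.2 CPM per kilobase. TPM2, TPM1 and MYL9 were lowest, at 6.79, 6.27 and 5.87 CPM per kilobase, and did not differ beyond their spread, since the SD of TPM1 was 3.35 and that of TPM2 1.75. In Control replicate 3 alone TPM1 stood at 2.42 and TPM2 at 4.77 CPM per kilobase. The length used matters for the order: per kilobase of the longest coding transcript, MYH9 (132) fell below TPM3 (189) and TPM4 (159), and TPM1 (20.4) stood above TPM2 (15.8). In the RSM3 libraries TPM1 lay below TPM2 by either length, with 2.39 ± 0.0897 against 5.29 ± 0.172 CPM per kilobase of exon (SD, n = 3) and 7.76 against 12.3 per kilobase of the longest coding transcript. ACTB and ACTG1 stood at 981 ± 111 and 993 ± 174 CPM per kilobase of exon there, a difference within their spread. Per kilobase of the longest coding transcript ACTB lay above ACTG1, at 1798 against 1318 in the RSM3 libraries and 1547 against 1004 in Control. How ACTB and ACTG1 compared in the RSM3 libraries thus depended on the length used.

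The wider actin cytoskeleton was read from 9 lists drawn up with earlier results known. Over 151 tested genes outside the 10, 25 rose and 0 fell (16.6% called, against 4.20% of all genes tested), the median log2 fold change was 0.09 and 99 lay above 0. Of the 25, 7 passed in each of the 6 fits that left out 1 library, namely ANLN, CCN1, CCN2, DIAPH3, FHL2, FOS and QKI, and each of the others lost its call in at least 1 of those fits. Of the 25 calls, 8, 9 and 14 were kept without Control replicates 1, 2 and 3, and 25, 15 and 12 without RSM3 replicates 1, 2 and 3. With scaling by library size alone, 16 list genes rose and 3 fell, and without RSM3 replicate 1 there were 46 rises and 11 falls. Without Control replicates 1 and 2, 2 of the 25 passed, CCN1 and CCN2, as did 0.370% of all genes tested.

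Among 24 tested regulators and chains of nonmuscle myosin II, 3 rose and 0 fell, with a median log2 fold change of 0.10. MYL12A, a regulatory light chain, rose from 339.6 ± 15.3 to 459 ± 9.63 CPM (SD, n = 3), or by 0.44 ± 0.07 on the log2 scale (edgeR adjusted p = 0.00422). The essential light chain MYL6 rose by 0.36 ± 0.08 (edgeR adjusted p = 0.0173), and RND3 by 0.39 ± 0.09 (edgeR adjusted p = 0.0261), both on the log2 scale. Of the 6 fits that left out 1 library, MYL12A was called in 5, all but that without Control replicate 1 (edgeR adjusted p = 0.0562), and MYL6 and RND3 were each called in 2.

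Among 23 tested crosslinkers and bundlers, 5 rose and 0 fell, with a median of 0.11. ANLN, the gene of anillin, which joins actin and myosin at the cleavage furrow, rose from 163 ± 2.93 to 242 ± 26.2 CPM, or by 0.57 ± 0.09 on the log2 scale (edgeR adjusted p = 0.00223). PALLD, a stress fibre scaffold, rose by 0.46 ± 0.09 on the log2 scale (edgeR adjusted p = 0.0113). PDLIM5, CSRP2 and PLS3 rose by 0.43, 0.55 and 0.32 (edgeR adjusted p = 0.0177, 0.0348 and 0.0495). PLS3 did not pass with DESeq2 size factors, the filter at 1 CPM, the replicate block or library size alone (edgeR adjusted p from 0.0502 to 0.127). Of the 6 fits that left out 1 library, PALLD was called in 4, PDLIM5 in 2, and CSRP2 and PLS3 each in 1. Of the 6 tested genes of the calponin, transgelin and caldesmon family, CALD1 rose by 0.33 ± 0.08 (edgeR adjusted p = 0.0310). CALD1 was called in 1 of those 6 fits. TAGLN, the smooth muscle relative of TAGLN2, was low at 1.87 to 4.11 CPM and did not pass (log2 fold change −0.60 ± 0.26, edgeR adjusted p = 0.236).

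Of 21 tested genes of monomer binding and turnover, CORO1C, TMSB4X and TMSB10 rose, with log2 fold changes of 0.33, 0.32 and 0.33, and 0 fell. Their edgeR adjusted p-values were 0.0180, 0.0288 and 0.0399, and each was called in 1 of the 6 fits that left out 1 library. TMSB4X and TMSB10 encode thymosins, which hold actin monomers. Of 33 tested nucleation genes, DIAPH3, a formin, rose from 25.5 ± 1.02 to 45.7 ± 3.74 CPM, or by 0.84 ± 0.10 on the log2 scale (edgeR adjusted p = 0.000475), WASF1 rose by 0.50 ± 0.11 on the log2 scale (edgeR adjusted p = 0.0274) and 0 fell. Of 10 tested tropomodulins and filament-end proteins, 0 passed, and the most abundant, the capping protein genes CAPZA1 and CAPZB, had log2 fold changes of 0.06 ± 0.10 and 0.08 ± 0.08 (edgeR adjusted p = 0.827 and 0.665). Without RSM3 replicate 1 CAPZA1 was at 0.17 and passed (edgeR adjusted p = 0.0323).

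The list of SRF and MRTF factors and targets had the highest count of rises. Of its 32 genes past the low-count filter, 11 rose, 0 fell, 20 did not pass and TPM1 has no call. The median log2 fold change was 0.27, with the value of TPM1 included. The list holds 8 of the 10 genes described above, TPM1 among them, and none of these was among the genes that rose. CCN2 and CCN1, matricellular genes that are also targets of YAP and TAZ, rose from 34.9 ± 5.45 to 95.5 ± 3.69 CPM and from 74.2 ± 4.55 to 168 ± 18.3 CPM. Their log2 fold changes were 1.45 ± 0.11 and 1.18 ± 0.09 (edgeR adjusted p = 1.28e-05 and 2.03e-05). VCL, the gene of the focal adhesion protein vinculin, rose from 1438 ± 23.0 to 1921 ± 77.6 CPM, or by 0.42 ± 0.07 on the log2 scale (edgeR adjusted p = 0.00648) and lost its call without Control replicate 1 or 2. FHL2, a LIM protein gene, rose by 0.59 ± 0.10 on the log2 scale (edgeR adjusted p = 0.00370).

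FOS and EGR1, early response genes of that list, were low. FOS stood at 0.354 to 0.627 CPM in the Control libraries and at 1.87 to 2.94 CPM in the RSM3 libraries (log2 fold change 2.38 ± 0.38, edgeR adjusted p = 0.00351). EGR1 stood at 0, 0.171 and 0.316 CPM in the Control libraries and at 3.39, 1.37 and 1.35 CPM in the RSM3 libraries, and its fitted log2 fold change of 3.53 ± 0.66 (edgeR adjusted p = 0.00965) depends on few reads. EGR1 lost its call without Control replicate 2 (edgeR adjusted p = 0.0663). The myogenic cofactor gene MYOCD had 0 counts in every library.

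Among 14 tested regulators of tropomyosin splicing, QKI rose and 0 fell. QKI encodes an RNA-binding protein of alternative splicing, and it rose from 130.5 ± 4.17 to 235 ± 31.2 CPM, or by 0.85 ± 0.10 on the log2 scale (edgeR adjusted p = 0.000293). Counts per gene do not show which TPM1 isoforms were present, so splicing was not measured.

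**Figure D4:**
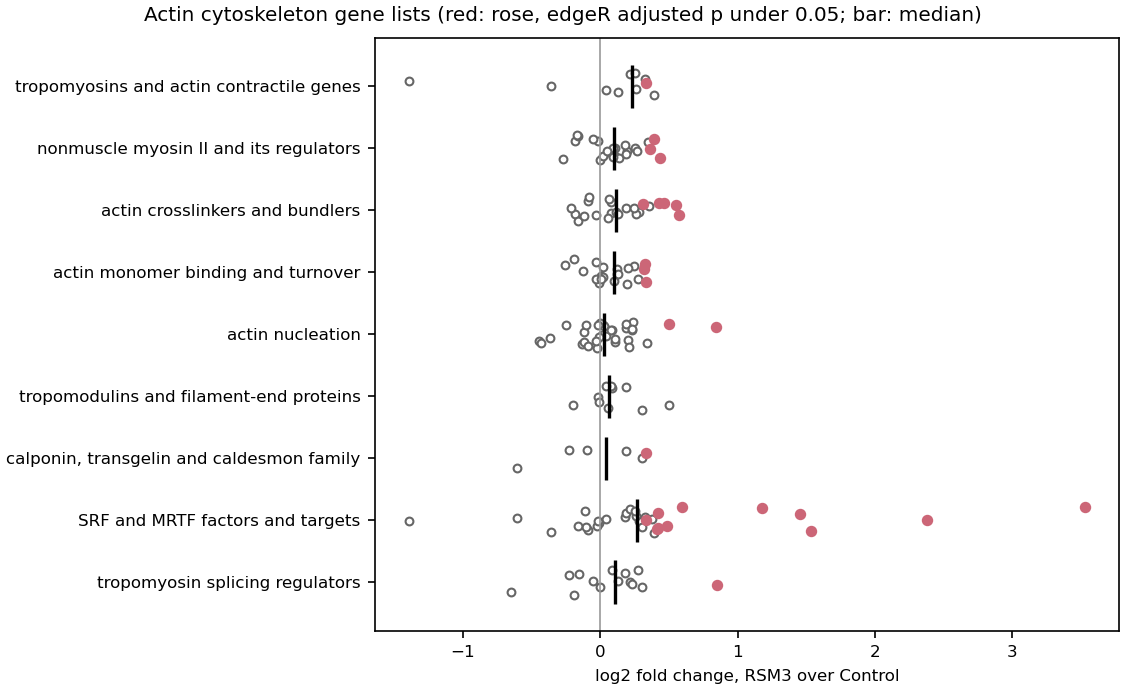
Log2 fold change, RSM3 over Control, of each tested gene (points) in the 10 genes described here and in 8 lists of the actin cytoskeleton, with the list median as a black bar and genes that rose at an edgeR adjusted p under 0.05 in red. The medians run from 0.03 for nucleation to 0.27 for SRF and MRTF factors and targets, and the point furthest left is TPM1, shown without a call.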

How the data were processed

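The authors deposited whole-number read counts for 60545 genes in 6 libraries, with no normalisation. Per the submitters' processing notes, fastp, STAR (2.7.1a), featureCounts, DESeq2 and hg38 were used, and per the labels' protocols, dUTP strand-marked libraries were built from poly(A) RNA and sequenced as paired 150-base reads. Which annotation and strand setting were used, and how reads with several matches were counted, is not stated, so counts of overlapping genes and near-identical copies are uncertain. Replicates of a group differed by more than sampling noise (chi-square per degree of freedom 3.33 to 20).

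The 10 genes, the lists, the tests and the alternatives were chosen with earlier results of these data known. In each list the text names every gene that passed up to 6, otherwise the 6 with the smallest adjusted p, and the 2 most abundant where none passed. SRF, ELK3, THBS1 and FOSB, which also rose, fall outside that rule. KDR, SMTN, COL1A1, ADRA1D, C1QL4, SPARC, AC113404.3, TAGLN, MYOCD, ACTA1, ACTC1, PTPRC, VWA5A, BTK, IQGAP2 and the muscle and mast cell genes were named after their values had been seen. The same holds for PECAM1, VWF, CDH5 and TPM3P9. Looser limits for the genes of Control replicates 1 and 2 had been looked at as well.

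Genes were kept with filterByExpr (minimum count 10) and tested in edgeR (4.0.16, R 4.3.3; limma 3.58.1) by its quasi-likelihood F-test with TMM factors (0.944 to 1.02), robust dispersion and Benjamini-Hochberg adjustment over all 15773 genes, at a threshold of 0.05. The common biological coefficient of variation was 10.3%. SE of log2 fold changes was derived from the F statistic, and CPM uses TMM-scaled totals. Gene coordinates, exonic lengths and GC content came from GENCODE 29 (96.5% of the table's IDs matched), and promoter sequences from RefSeq. Shares were compared with scipy (1.17.1). On simulated counts (15963 genes), edgeR recovered 79.1%, 97% and 100% of genes changed 1.5-fold, 2-fold and 3-fold, and 5.15% of its calls were false. The changed genes were drawn only from genes above a minimum mean count. Noise was independent between genes, without the GC deviation of RSM3 replicate 1 or the split of Control replicates 1 and 2. These shares therefore need not hold for the real libraries. Alternatives were DESeq2 size factors, library size alone, other filters, DESeq2 (1.42.0), limma voom, a replicate block, an offset for GC content and length by loess (span 0.5), and leaving out libraries.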

Additional observations from a re-analysis of the deposited data

How the results depend on the processing

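The comparison over all genes called 662 genes. The count was 1083 without a filter, 1643 with the GC and length offset and 1409 with that offset and the replicate block, 214 to 2393 when each library was left out in turn, the highest without RSM3 replicate 1, and 63 without Control replicates 1 and 2. With scaling by library size alone, 308 genes rose and 254 fell, against 488 and 174. Of the tropomyosin and actin contractile genes other than TPM1, 1 was called, against 0 with library size alone, 3 without a filter, 3 with DESeq2, 5 with the offset, 4 with the offset and the replicate block, 0 to 3 when each library was left out and 0 without Control replicates 1 and 2. Among all list genes, 25 were called, against 52 with the offset, 45 with the offset and the replicate block and 8 to 57 when each library was left out. Of the 8 genes most like TPM1, 3 were shared when Spearman's correlation or a mean of at least 1 CPM was used. The direction turned for TPM2 (0.15 without Control replicates 1 and 2), FLNA (−0.02 with library size alone, −0.14 without RSM3 replicate 1), ACTA2 (0.06, 0.03 and 0.33 without Control replicate 1, Control replicate 3 and RSM3 replicate 3) and CAPZA1 (−0.0017 without RSM3 replicate 2), and these turned log2 fold changes all missed the threshold. With each library left out in turn, FLNA ran from −0.14 to 0.14, ACTA2 from −0.65 to 0.33 and CAPZA1 from −0.0017 to 0.17, the last of which passed without RSM3 replicate 1. The cause was not tested. Same-numbered libraries of both groups did not deviate together (r = 0.0302, −0.0249 and 0.0444), so the numbers are not taken as pairs. With the replicate block 653 genes were called. The fit without Control replicates 1 and 2 leaves 1 Control library, which is assumed to vary like the RSM3 libraries.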
